A study of Rattus norvegicus with 58 samples.

Results

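The genes described here are the enzymes that make haem (Alas1, Alad, Uros, Urod, Cpox and Fech), the enzymes that break it down (Hmox1 and Blvrb), and Por, the reductase that feeds electrons to cytochrome P450. They were chosen by name, as the probe sets whose single gene symbol is one of these 9, which gave 11 of the 31099 probe sets and 9 of the 14217 genes named on the array. Uros and Por have 2 probe sets each and the others 1. All 9 genes passed the filter on dim probe sets in both organs. Messenger RNA was measured on Affymetrix rat arrays, 1 per organ sample, in male Harlan Sprague-Dawley rats dosed by gavage over 5 days with 4-methylcyclohexanemethanol, an alicyclic alcohol used in coal washing. The doses were 0, 0.1, 1, 10, 100, 300 and 500 mg/kg. Each organ had 5 biological replicates at 0 mg/kg, the control of that organ, and 4 at every other dose, so that liver and kidney had 29 arrays each. No source used here gives the ages of the rats or the liquid given to controls.

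Haem is the iron-containing ring that cytochromes P450, catalase and haemoglobin carry. Its synthesis starts in the mitochondrion with Alas1, the rate-limiting enzyme outside red cells, passes through cytosolic steps run by Alad, Uros and Urod, and returns to the mitochondrion for Cpox and Fech, the last of which inserts the iron. Hmox1 opens the ring and Blvrb reduces products of its breakdown. The liver uses much of its haem for cytochromes P450, and inducers of those enzymes are known to raise Alas1 in rat liver.

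Liver and kidney arrays matched their labels on tissue markers. The hepatocyte transcript Alb lay between 14.6 and 14.7 on the log2 scale on every liver array, and on kidney arrays between 3.75 and 10.2. That highest kidney value came from control replicate 2, an array in the reference group for every kidney dose. The other control kidneys had Alb between 3.75 and 5.93, and the source of the high value was not tested. The proximal tubule transporter Slc34a1 lay between 12.8 and 13.7 on kidney arrays and between 4.61 and 5.49 on liver arrays. Kidney replicate 3 at 300 mg/kg and at 500 mg/kg had mean values of 10.2 and 9.26 over 8 adipose transcripts, against 4.86 to 6.01 on the other kidney arrays. Array medians spanned 5.26 to 5.32 in liver and 5.33 to 5.38 in kidney. The number of arrays limits the precision of every value. In whole tissue, fewer cells of a type and less RNA per cell cannot be told apart.

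The upstream sequence is shown for the first enzyme of the pathway, Alas1, and for Alad, the member that lay above all control kidneys at 4 doses. Each run holds the 250 bases before the RefSeq start site in build GRCr8, on the minus strand. The Alas1 run is chr8:115768643-115768892, with a match to the binding motif of nuclear respiratory factor 1 in capitals. The Alad run is chr5:80987902-80988151, with an E box in capitals.
Alas1: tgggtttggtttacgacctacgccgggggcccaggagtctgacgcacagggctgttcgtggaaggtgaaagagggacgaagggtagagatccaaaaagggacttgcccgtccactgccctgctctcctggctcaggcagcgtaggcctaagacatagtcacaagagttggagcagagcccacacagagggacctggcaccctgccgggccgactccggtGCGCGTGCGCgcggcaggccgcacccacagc
Alad: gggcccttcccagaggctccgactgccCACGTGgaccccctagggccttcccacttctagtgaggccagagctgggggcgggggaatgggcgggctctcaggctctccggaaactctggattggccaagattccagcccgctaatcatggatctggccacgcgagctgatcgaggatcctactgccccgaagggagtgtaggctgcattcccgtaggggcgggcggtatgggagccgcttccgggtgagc
Motifs were searched on both strands of the 250 upstream bases in the RefSeq promoter table, which holds 7 of the 9 genes. Hmox1 and Cpox have no entry there, so their promoters were not searched. The nuclear respiratory factor 1 motif was found in Alas1 alone of the 7, and in 3.75% of 33469 promoters. The E box CACGTG was found in Alad and Urod and in 5.59% of all promoters. The antioxidant response motif TGACNNNGC was in none of the 7 windows, against 10.1% of all promoters. A match describes the letters in the window only.

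Without treatment, liver and kidney differed in the level of most of these transcripts. Of the 9 genes, 8 were called (limma, adjusted p under 0.05), in a comparison in which 76.1% of 10673 genes were called, so a call there is common among genes in general. The same 8 had control groups that did not overlap, against 63.4% of all genes. Of these 8, 7 were higher in liver, and Uros was higher in kidney by its brighter probe set. Differences between genes in the array's signal are not differences in abundance, so each gene is compared only with itself. No source used here says whether both organs went through 1 normalization, a limit on every level set across them.

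Cpox, coproporphyrinogen oxidase, had 10.58, 10.46, 10.59, 10.37 and 10.65 in control livers, against 8.01, 8.25, 8.08, 7.99 and 8.18 in control kidneys. Its difference was 2.43 on the log2 scale (SE 0.09, limma adjusted p = 4.63e-30), a 5.38-fold higher signal in liver. Hmox1, haem oxygenase 1, the inducible enzyme that opens the haem ring, had 8.27, 8.28, 8.20, 8.38 and 8.25 in control livers, against 5.81, 6.07, 5.33, 6.37 and 5.80 in control kidneys. The kidney values spread over more than 1 log2 unit and still lay below every liver value (difference 2.40, SE 0.15, limma adjusted p = 8.48e-20). The 12 macrophage and Kupffer cell markers measured, of 14 listed, had array means of 8.81 to 9.04 in control livers, against 6.08 to 6.16 in control kidneys. Their part in the Hmox1 difference was not tested. Blvrb, biliverdin reductase B, averaged 10.19 ± 0.16 in control livers and 7.86 ± 0.05 in control kidneys (SD, n = 5 each; difference 2.33, limma adjusted p = 7.51e-29).

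The synthesis enzymes other than Cpox differed by less between the control organs. Alad, which joins the first pathway product into a pyrrole, was higher in liver by 1.32 (SE 0.06). Alas1 was higher by 0.76 (SE 0.16), Fech by 0.74 (SE 0.06) and Urod by 0.40 (SE 0.04). Uros, uroporphyrinogen III synthase, averaged 6.22 ± 0.09 in control livers and 6.61 ± 0.06 in control kidneys (SD, n = 5 each; difference -0.39, limma adjusted p = 0.000123). The second Uros probe set on its own differed by -0.05 and was not called (limma adjusted p = 0.651). With the mean over both Uros probe sets the difference was -0.22 (limma adjusted p = 0.003085), and after quantile normalization over all 58 arrays it was -0.24 (limma adjusted p = 0.0115). Por did not separate the organs, with 8.30 ± 0.24 in control livers and 8.32 ± 0.13 in control kidneys (SD, n = 5 each). The 95% interval of the Por difference ran from -0.34 to 0.29.

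**Figure D1:**
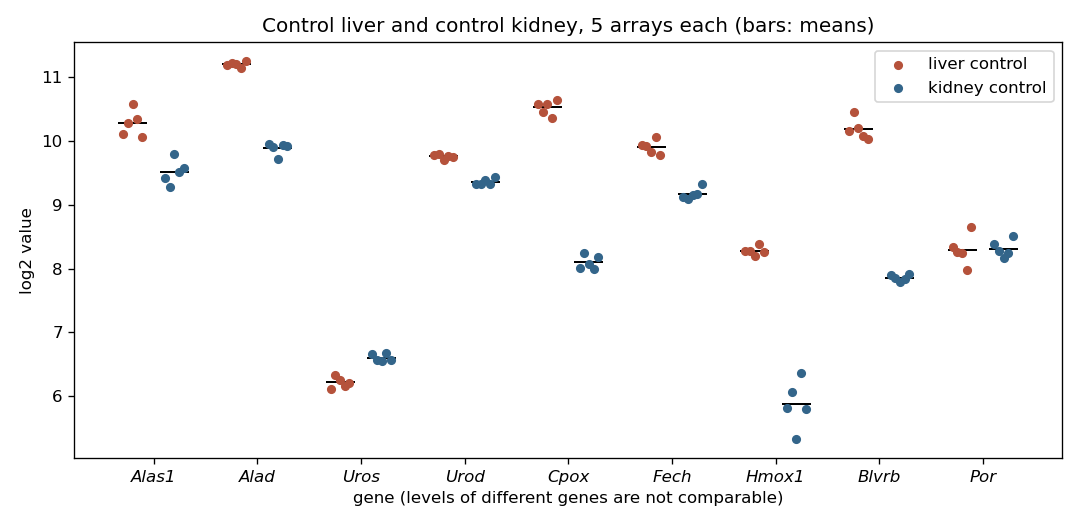
Log2 values of the 9 genes (x axis) in control liver, left of each pair, and control kidney, with 1 point per array and bars at the mean of 5 arrays. Liver lies above kidney for 7 genes, Uros (brighter probe set) is higher in kidney, and the Por values of both organs overlap.

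In dosed livers, 0 of the 9 genes passed limma's adjusted test at any dose, for the mean of 300 and 500 mg/kg, or for a trend over the dose ranks. At 500 mg/kg, 0.958% of 11275 genes were called, and 2 of the 9 members, Uros and Blvrb, had an unadjusted p under 0.05, against 13.9% of all genes. The members' median difference there was 0.05 on the log2 scale, against 0.01 over all genes. At 300 mg/kg 0.0266% of genes were called, and at 0.1, 1, 10 and 100 mg/kg 0.0%. Unadjusted p was under 0.05 for 0, 0, 1, 0 and 0 members from 0.1 to 300 mg/kg, against 4.1%, 5.83%, 6.39%, 3.68% and 7.89% of all genes. The mean of 300 and 500 mg/kg called 0.541% of genes and the dose trend 1.84%, and both use the same controls as the single doses. Each had 2 members with an unadjusted p under 0.05, against 13.1% and 16.6% of all genes.

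Uros had 6.69, 6.51, 6.75 and 6.65 in livers at 500 mg/kg, against 6.12, 6.34, 6.26, 6.16 and 6.21 in control livers. All 4 dosed livers lay above all 5 controls, which was so in the same direction for 2.7% of genes. The difference was 0.43 on the log2 scale (SE 0.11, 95% interval 0.20 to 0.66), a 1.35-fold higher signal, and it missed the call (limma adjusted p = 0.0636). A difference of 0.45 would have been called at that standard error. An exact two-sided permutation test of Uros alone over the 126 splits of the 9 arrays gave p = 0.00794, the smallest it can give. As the groups did not overlap, this p largely restates that separation.

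By its brighter probe set, the Uros value at the other doses stood close to control. Mean differences from control were -0.06 at 0.1 mg/kg, 0.06 at 1 mg/kg, 0.11 at 10 mg/kg, 0.01 at 100 mg/kg and 0.15 at 300 mg/kg. At 300 mg/kg the 4 livers had 6.06, 6.36, 6.72 and 6.34, so that a single array of that dose reached the range seen at 500 mg/kg. Replicate 1 at 1 mg/kg, at 6.59, also lay in that range. Over the 7 dose ranks the slope was 0.06 log2 per rank (SE 0.02, limma adjusted p = 0.0558). Fitted on the dose in mg/kg, the slope was 0.07 per 100 mg/kg (limma adjusted p = 0.006755), which is a call.

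The second Uros probe set had 6.22, 6.47, 6.39 and 6.23 in livers at 500 mg/kg, against 6.11, 6.21, 6.16, 6.19 and 5.81 in control livers. It also lay above the controls on all 4 arrays, narrowly (lowest 6.2155, highest control 6.2112), a separation not counted over all probe sets. The difference was smaller, at 0.23 (SE 0.10, limma adjusted p = 0.282 over all probe sets). At 1 and at 100 mg/kg this probe set differed by 0.18 each (limma adjusted p = 0.826 and 0.999). The probe sets followed each other weakly over the 29 livers (r = 0.26) and not at all within doses (r = -0.01). With the mean of both, Uros rose by 0.33 at 500 mg/kg (limma adjusted p = 0.0369). Of 19 alternative settings, 5 called Uros at 500 mg/kg, with differences of 0.33 to 0.48 over all 19 and adjusted p from 0.0262 to 0.166.

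Blvrb, which reduces biliverdin and flavins, had 10.37, 10.37, 10.49 and 10.53 in livers at 500 mg/kg, against 10.15, 10.45, 10.21, 10.08 and 10.04 in control livers. The groups overlapped through control replicate 2 alone. The difference was 0.26 (SE 0.09, 95% interval 0.07 to 0.44, limma adjusted p = 0.181), and the exact permutation p was 0.0317. The dose means stood above control by 0.09, 0.09, 0.12, 0.13, 0.17 and 0.26 from 0.1 to 500 mg/kg, none of them called. These comparisons share 5 control livers, so the shared sign is not 6 separate observations. The trend was 0.03 log2 per rank (limma adjusted p = 0.113).

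Alas1 had 10.25, 10.30, 10.85 and 10.42 in livers at 500 mg/kg, against 10.11, 10.29, 10.58, 10.34 and 10.07 in control livers. The groups overlapped, and the difference of 0.18 had a 95% interval from -0.22 to 0.58 (limma adjusted p = 0.752). At 300 mg/kg 3 livers lay between 9.88 and 10.00, below all controls, while replicate 4 was at 10.86. Differences at the lower doses were 0.19, 0.15, 0.19 and -0.01 from 0.1 to 100 mg/kg. The spread of Alas1 within a dose, an SD of 0.32, was larger than that of 95.5% of liver genes or equal to it. At this spread a difference of 0.78 would have been needed for a call at 500 mg/kg.

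Of the other synthesis enzymes, Urod varied least in liver. Urod, which removes carboxyl groups from uroporphyrinogen, ranged from 9.59 to 9.90 over all 29 livers, with a within-dose SD of 0.06 that put it at the 1.44th percentile of liver genes. Its difference at 500 mg/kg was 0.01 (95% interval -0.09 to 0.11). Alad ranged from 11.05 to 11.43 and differed by -0.02 at 500 mg/kg (95% interval -0.14 to 0.11). Cpox ranged from 10.26 to 10.83 and differed by 0.05 (95% interval -0.13 to 0.23). Fech, ferrochelatase, ranged from 9.73 to 10.07 and differed by -0.02 (95% interval -0.15 to 0.11). The within-dose SD of Cpox was 0.13, at the 36.8th percentile of liver genes. For Urod, Alad, Fech and Cpox a difference of 0.19, 0.25, 0.26 and 0.34 in that order would have been called.

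Hmox1 in liver stood below the mean of the 5 shared controls at every dose, by 0.03 to 0.19 on the log2 scale, with no call. At 100 mg/kg it had 8.08, 8.20, 8.15 and 8.12, against 8.27, 8.28, 8.20, 8.38 and 8.25 in control livers. The groups did not overlap, by less than the second decimal, as for 0.958% of genes in that direction, and the difference was -0.14 (limma adjusted p = 0.999). At 10 mg/kg the livers had 7.95, 8.03, 8.14 and 8.22, overlapping the controls, with a difference of -0.19 (limma adjusted p = 0.772). The exact permutation p was 0.0159 at both doses. The values at 500 mg/kg, 8.26, 8.0014, 8.43 and 8.30, lay on both sides of the control mean (difference -0.03, 95% interval -0.22 to 0.16). The 12 macrophage markers had array means of 8.46 to 8.94 in livers at 500 mg/kg, against 8.81 to 9.04 in control livers. All 12 stood below control at 500 mg/kg, with 0 called there (limma), 10 at an unadjusted p under 0.05, against 13.9% of all genes, and 3 called in the dose trend, against 1.84%. Their part in the Hmox1 values was not tested.

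Por, cytochrome P450 oxidoreductase, had 8.49, 8.27, 8.40 and 8.39 in livers at 500 mg/kg, against 8.34, 8.26, 8.25, 7.98 and 8.65 in control livers (difference 0.09, 95% interval -0.31 to 0.50). Its highest group mean was at 1 mg/kg, where the livers had 8.16, 9.12, 8.44 and 8.89 (difference 0.36, limma adjusted p = 0.841). The Por within-dose SD of 0.32 was as wide as that of Alas1. It was carried by both Por probe sets, which had r = 0.82 over the 29 livers.

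**Figure D2:**
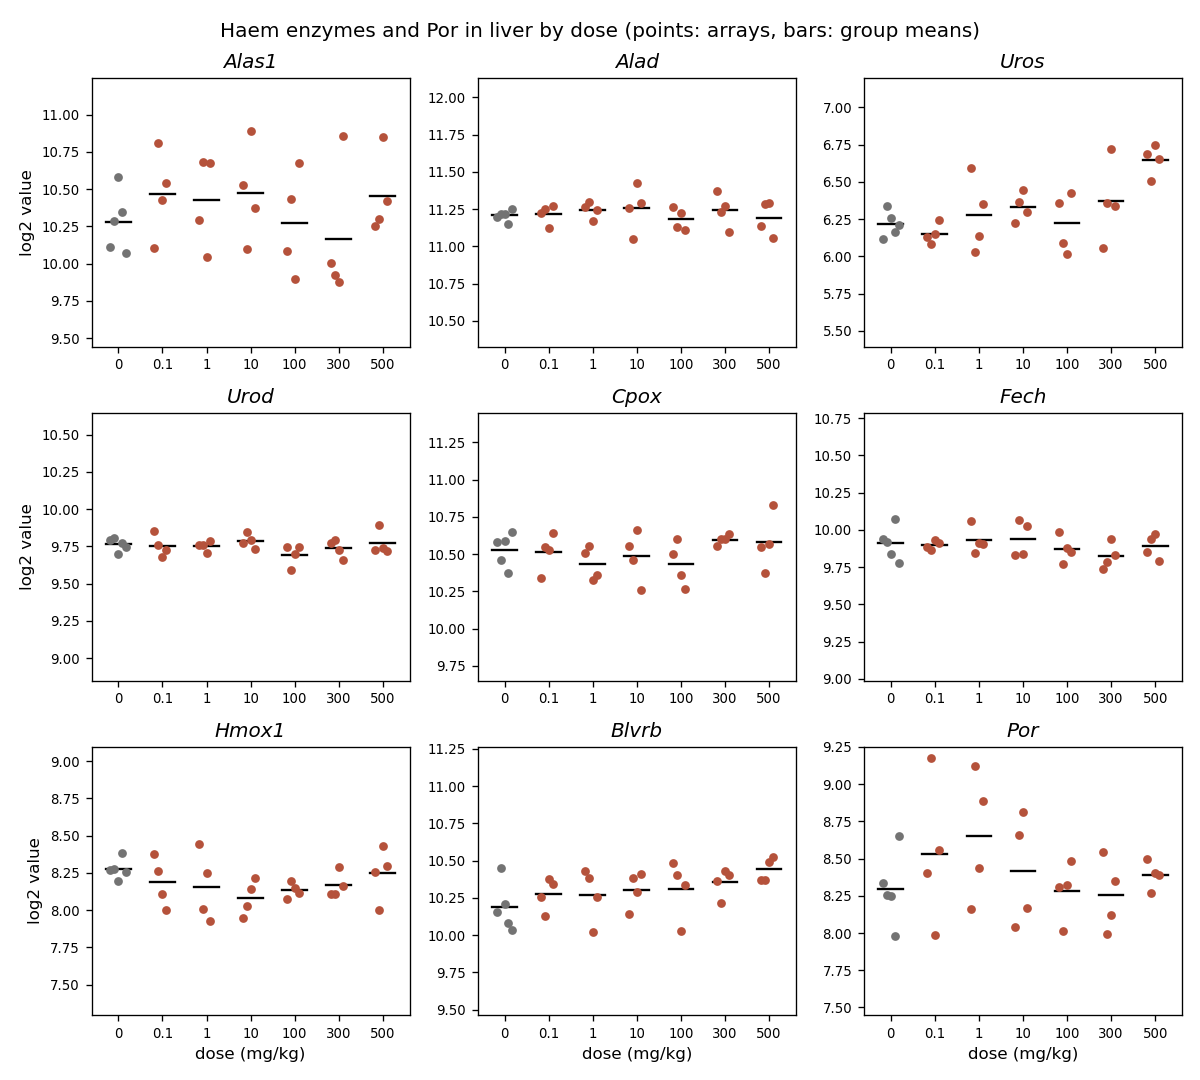
Log2 values in liver (y axis, the same span of 1.8 units in each panel) against dose in mg/kg, with 1 point per array and bars at group means, controls in grey at 0 mg/kg. The 4 Uros values at 500 mg/kg, 6.51 to 6.75, lie above all controls, while Alas1 and Por scatter widely at most doses.

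In dosed kidneys, too, 0 of the 9 genes passed limma's adjusted test at any dose, for the mean of 300 and 500 mg/kg or for the trend. Calls among all 11204 kidney genes were rare, with 0.0% at 0.1, 1, 10 and 100 mg/kg and 0.0268% at 300 and at 500 mg/kg. They were 0.0446% for the mean of 300 and 500 mg/kg and 0.152% for the trend. Liver had more at 500 mg/kg, for that mean and for the trend, with 0.958%, 0.541% and 1.84%. Unadjusted p was under 0.05 for 1, 2, 2, 0, 0 and 1 members from 0.1 to 500 mg/kg, against 8.14%, 9.33%, 6.27%, 4.81%, 5.74% and 9.58% of all genes. It was so for 1 member in the mean of 300 and 500 mg/kg, against 8.93%, and for 0 in the trend, against 9.76%. Alad accounted for the member at 0.1 and at 500 mg/kg, and for 1 of the 2 at 1 and at 10 mg/kg.

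Alad, the enzyme that lead inhibits, had 10.10, 10.20, 10.07 and 10.14 in kidneys at 0.1 mg/kg, against 9.96, 9.90, 9.72, 9.94 and 9.92 in control kidneys. At 1 mg/kg it had 10.23, 10.13, 10.03 and 9.99, at 10 mg/kg 10.00, 10.04, 10.20 and 10.24, and at 500 mg/kg 10.28, 9.99, 10.17 and 10.00. At these 4 doses every dosed kidney lay above every control, as for 1.15%, 1.21%, 1.26% and 2.04% of genes from the lowest to the highest of them. The differences were 0.24, 0.21, 0.23 and 0.22, with SE 0.07 each and limma adjusted p of 0.568, 0.419, 0.764 and 0.246 in the same order. At 100 mg/kg the difference was 0.06 and at 300 mg/kg 0.10, with overlapping groups. The trend over dose ranks was 0.01 per rank (limma adjusted p = 0.827). These comparisons share the same 5 control kidneys, of which replicate 3 was lowest. Without that array the 4 differences were 0.20, 0.17, 0.19 and 0.18. The same array was the lowest control for Slc34a1, at 12.80 against 13.18 to 13.40 on the other control kidneys. Over 6 proximal tubule markers the array means were 11.77 to 11.91 at 0.1 mg/kg and 11.84 to 11.98 at 1 mg/kg, against 11.50 to 11.90 in control kidneys. At each of these doses 5 of the 6 stood above control, with 3 at an unadjusted p under 0.05, against 8.14% and 9.33% of all genes, and 0 called (limma). Their part in the Alad values was not tested.

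Por in kidney was furthest from control at 1 mg/kg, with 8.58, 8.80, 8.36 and 9.06 against 8.38, 8.28, 8.17, 8.24 and 8.51 in control kidneys. The groups overlapped, and the difference was 0.38 (SE 0.11, limma adjusted p = 0.366, exact permutation p = 0.0397). At 10 mg/kg the difference was 0.25 (limma adjusted p = 0.772), and from 100 to 500 mg/kg it lay between -0.01 and 0.02. The proximal tubule markers given beside Alad were higher at 1 mg/kg too, by a median of 0.19, and their part in the Por value was not tested. Alas1 in kidney stood above the shared controls at all 6 doses, by 0.04 to 0.24, with no call. At 500 mg/kg it had 9.72, 9.66, 9.69 and 9.76, against 9.43, 9.28, 9.80, 9.52 and 9.58 in control kidneys (difference 0.19, 95% interval -0.06 to 0.43).

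Hmox1 varied more between kidneys of the same dose than most genes, with a within-dose SD of 0.33 at the 95th percentile. At 500 mg/kg it had 5.89, 5.70, 6.55 and 5.53, against 5.81, 6.07, 5.33, 6.37 and 5.80 in control kidneys (difference 0.04, 95% interval -0.38 to 0.46). The highest value at 500 mg/kg and at 300 mg/kg, 6.55 and 6.35, came from the replicate 3 arrays with high adipose transcripts. Their part in these values was not tested. Uros in kidney differed by 0.08 at 500 mg/kg (95% interval -0.07 to 0.22). Blvrb, Urod, Cpox and Fech differed by 0.05, 0.06, -0.05 and 0.02 in that order, and every interval held 0.

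**Figure D3:**
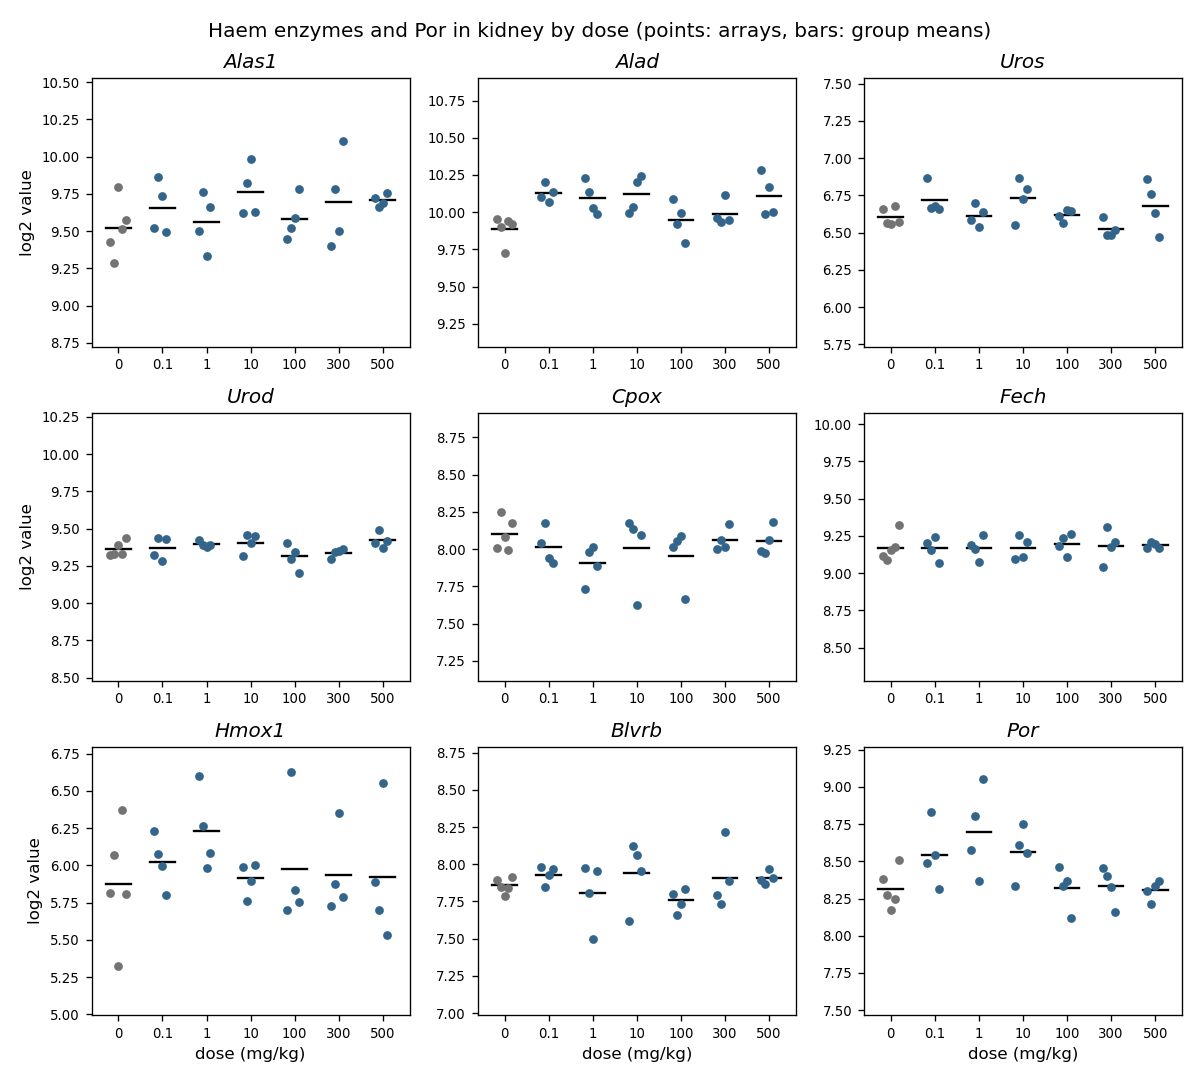
Log2 values in kidney (y axis, the same span of 1.8 units in each panel) against dose in mg/kg, with 1 point per array and bars at group means, controls in grey at 0 mg/kg. Alad lies above all controls at 0.1, 1, 10 and 500 mg/kg, and Hmox1 is the most scattered of the 9 genes.

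The effect in liver minus the effect in kidney was called for 0 of the 9 genes at every dose and for the mean of 300 and 500 mg/kg (limma). At 500 mg/kg 0.122% of 10673 genes were called, for the mean 0.0656%, and at the other doses 0.0%. Unadjusted p was under 0.05 for 1, 1, 0, 0, 0 and 2 members from 0.1 to 500 mg/kg, against 5.26%, 7.16%, 3.83%, 3.57%, 5.5% and 8.54% of all genes. For the mean it was so for 1 member, against 8.52%. For Uros the difference of effects at 500 mg/kg was 0.36 (SE 0.13, 95% interval 0.09 to 0.62, limma adjusted p = 0.367). For Alad it was -0.24 (SE 0.10, limma adjusted p = 0.433), and for Blvrb 0.21 (SE 0.14, limma adjusted p = 0.758).

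The pathway genes tested beside the members were Alas2, the red cell form of the first enzyme, Ppox, the step before Fech, Hmox2, the constitutive haem oxygenase, and Blvra, the main adult biliverdin reductase. Of these 4, 0 were called at any dose, for the mean of 300 and 500 mg/kg or for the trend in either organ (limma), and unadjusted p at 500 mg/kg was under 0.05 for 0 in liver and 1 in kidney, against 13.9% and 9.58% of all genes. In liver at 500 mg/kg they differed by -0.19, 0.06, 0.05 and -0.11 in that order. In kidney at 500 mg/kg Ppox averaged 8.53 ± 0.12, against 8.33 ± 0.09 in control kidneys (SD, n = 4 and 5; difference 0.20, limma adjusted p = 0.361). Blvra averaged 7.81 ± 0.11 in control livers and 9.41 ± 0.46 in control kidneys (SD, n = 5 each). It was lower in liver (difference -1.603, limma adjusted p = 2.16e-14), opposite to Blvrb. Erythroid and blood transcripts, 13 measured of 21 listed, had array means of 6.02 to 6.33 in livers at 500 mg/kg, against 6.11 to 6.77 in control livers. Alas2 is itself among the 13, and the part of the others in its value was not tested.

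Several cytochromes P450, the main users of hepatic haem, rose in the same livers. Of 41 genes tested in the list of P450s and their other electron donors, 4 rose and 0 fell at 500 mg/kg, where 0.958% of all genes were called, and 13 had an unadjusted p under 0.05, against 13.9%. The list had a median of 0.09, against 0.01 over all genes. Cyp3a18, a steroid and drug hydroxylase, averaged 12.73 ± 0.06 in livers at 500 mg/kg and 12.12 ± 0.24 in control livers (SD, n = 4 and 5; difference 0.61, limma adjusted p = 0.00105). Cyp3a23-3a1, the inducible rat enzyme of that family, rose by 0.58 (limma adjusted p = 0.00105) and by 0.49 at 300 mg/kg (limma adjusted p = 0.0138). Cyp4a1, a fatty acid hydroxylase, rose by 0.69 (limma adjusted p = 0.0217) and Cyp2d4 by 0.38 (limma adjusted p = 0.0410). Cyp2c22 and Cyp3a9 rose in the dose trend, by 0.07 and 0.21 log2 per rank (limma adjusted p = 0.0394 and 0.0188). At 500 mg/kg Cyp2c22 differed by 0.45 (limma adjusted p = 0.0710) and Cyp2c6v1 by 0.15 (limma adjusted p = 0.153). In kidney 28 of the list were tested, with 0 called at 500 mg/kg and 4 at an unadjusted p under 0.05, against 9.58% of all genes, and Cyp2e1 and Cyp4a1 rose in the trend, where 0.152% of all genes were called, by 0.11 and 0.08 per rank (limma adjusted p = 0.0283 and 0.0340). The kidney differences at 500 mg/kg were 0.54 for Cyp4a1, 0.60 for Cyp2e1, 0.30 for Cyp27a1 and 0.35 for Cyp39a1. When the 2 adipose-rich kidney arrays were left out, a choice made after seeing the data, both trend calls were lost (adjusted p = 0.172 for Cyp2e1 and 0.269 for Cyp4a1, limma), with slopes of 0.10 and 0.06 per rank. The differences at 500 mg/kg were then 0.41 for Cyp4a1, 0.55 for Cyp2e1, 0.37 for Cyp27a1 and 0.41 for Cyp39a1. Whether the P450 changes differ from those of the haem enzymes was not tested.

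**Figure D4:**
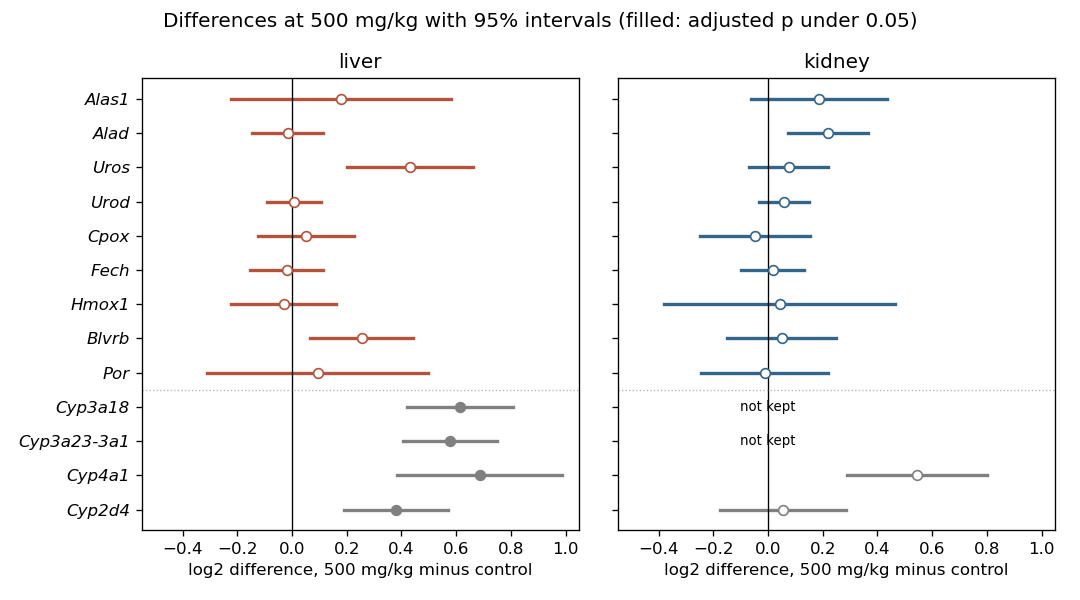
Log2 difference of 500 mg/kg minus control (x axis) in liver, left, and kidney, right, with 95% intervals for the 9 genes and, below the dotted line in grey, 4 P450s that rose in liver. Filled points passed the adjusted test, which 0 of the 9 genes did. Cyp3a18 and Cyp3a23-3a1 did not pass the filter in kidney.

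Of 28 genes of iron and haem handling tested in liver, 0 were called at 500 mg/kg (limma), with 4 at an unadjusted p under 0.05, against 13.9% of all genes, and 1 fell in the dose trend, where 1.84% of all genes were called. That gene was Slc40a1, ferroportin, the iron exporter of macrophages and hepatocytes, which fell by 0.04 log2 per rank (limma adjusted p = 0.0206). It averaged 9.82 ± 0.11 in livers at 500 mg/kg and 10.06 ± 0.06 in control livers (SD, n = 4 and 5; difference -0.24, limma adjusted p = 0.0839). Hpx, the plasma haem scavenger haemopexin, differed by -0.14 (limma adjusted p = 0.0754), and Tmem14c, a mitochondrial porphyrin carrier, by 0.27 (limma adjusted p = 0.113). Flvcr2, a haem-binding membrane carrier, differed by -0.51. Fabp1, a fatty acid carrier that also binds haem, differed by 0.06, and Ambp, the precursor of a plasma haem binder, by -0.04. In kidney, of 25 tested, 0 were called at 500 mg/kg or in the trend, with 3 and 4 at an unadjusted p under 0.05, against 9.58% and 9.76% of all genes. At 500 mg/kg Fdx2, a ferredoxin of iron-sulphur cluster assembly, differed by 0.22 and Flvcr2 by -0.35. Abcg2, an exporter of porphyrins, differed by -0.18, and Clpx, a mitochondrial unfoldase that acts on the first enzyme of haem synthesis, by 0.15.

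Among other haem proteins, 16 were tested in liver and 1 fell, both at 500 mg/kg and in the trend, where 0.958% and 1.84% of all genes were called, with 6 at an unadjusted p under 0.05 at 500 mg/kg, against 13.9% of all genes. Steap3, a haem-bearing reductase that frees iron taken up with transferrin, averaged 7.17 ± 0.33 in livers at 500 mg/kg and 7.75 ± 0.06 in control livers (SD, n = 4 and 5; difference -0.58, limma adjusted p = 0.0320). In the trend it fell by 0.08 per rank (limma adjusted p = 0.0161). Cybb, the haem subunit of the phagocyte oxidase, differed by -0.27, Cyc1, cytochrome c1, by 0.12, and Gucy1b1, a haem-bearing guanylate cyclase subunit, by -0.32 at 500 mg/kg. Steap4, a metalloreductase, differed by -0.26 and Sqor, the mitochondrial sulphide oxidase, by 0.37, none of them called. Sqor is a flavin enzyme that was counted in this list though it carries no haem. In kidney Cybb, Cyc1, cytoglobin (Cygb) and Cyba, the partner of Cybb, differed by -0.36, 0.13, 0.27 and 0.22, none called among 15 (3 at an unadjusted p under 0.05, against 9.58% of all genes). Macrophage markers were lower in the same livers, and Adgre1, Csf1r and Mrc1 fell in the dose trend by 0.07, 0.04 and 0.05 log2 per rank (limma adjusted p = 0.0159, 0.0262 and 0.0154). Their part in the Slc40a1 and Steap3 values was not tested.

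Regulators of the pathway gave no call among 13 tested in liver and 12 in kidney at 500 mg/kg or in the trend (limma). In each organ 1 had an unadjusted p under 0.05 at 500 mg/kg, against 13.9% of all genes in liver and 9.58% in kidney. Bach1, the haem-sensing repressor of Hmox1, differed by 0.35 in liver at 500 mg/kg (limma adjusted p = 0.167). Ppargc1a, the coactivator that raises Alas1 in fasting mouse liver, differed by -0.33 (limma adjusted p = 0.508). The nuclear receptors Rxra, Hnf4a and Nr1i3 and the stress sensor Keap1 differed by 0.16, 0.17, 0.17 and -0.05. In kidney Hnf4a, Rxra, Ppargc1a and Nrf1 differed by -0.11, -0.23, -0.16 and 0.15.

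Likeness was measured as Pearson's r over the 29 liver arrays, which share the dose series, across 11274 other genes. The genes most like Uros were Acsm2 (r = 0.80), Gpt (r = 0.78) and Mecr (r = 0.76). Acsm2, a medium-chain acyl-CoA synthetase, rose by 0.97 at 500 mg/kg (limma adjusted p = 0.0279), Gpt, alanine aminotransferase, by 1.21 (limma adjusted p = 0.00105) and Mecr, an enzyme of mitochondrial fatty acid synthesis, by 0.38 (limma adjusted p = 0.0245). Within doses the r with Uros was 0.72, 0.63 and 0.58 in that order. These genes were picked over arrays that include 500 mg/kg, so their rises there are not separate evidence on Uros. The lowest r among the 100 genes most like Uros was 0.60. Those most like Blvrb were Akr7a3 (r = 0.76), Htatip2 (r = 0.72) and Inmt (r = 0.69), of which Htatip2 rose in the dose trend by 0.05 per rank (limma adjusted p = 0.0394). Those most like Alas1 were Ints6 (r = 0.72), Slc35a4 (r = 0.72) and Fbxo34 (r = 0.71), none of them called at 500 mg/kg. Por was added after its values were seen. The gene most like it was Rhbdd2 (r = 0.81), its neighbour on the GRCr8 gene map, followed by Dbp (r = 0.75), a transcript of the circadian clock. Without the 2 arrays furthest from the median the r with Dbp was 0.55.

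The liver and the kidney array of the same dose and replicate number, which the labels do not tie to the same rat, were compared in their scatter within a dose. Over 29 such pairs, the 4 members with the highest r are given here. Their deviations from the group means had r = 0.66 for Alas1 (rho = 0.49), 0.58 for Hmox1 (rho = 0.56), 0.56 for Por (rho = 0.58) and 0.50 for Blvrb (rho = 0.42), against a median of 0.09 over 10673 genes. Permutation p within doses was 0.00123, 0.00061, 0.0229 and 0.0118 for r and 0.0194, 0.00342, 0.0101 and 0.0390 for rho, in that order. Adjusted over all genes the p for r was 0.0980, 0.0668, 0.419 and 0.332, so none passed, while 0.618% of genes did. Without the 2 pairs furthest from the median in liver, r was 0.52, 0.53, 0.53 and 0.41. The 2 adipose-rich kidney arrays, replicate 3 at 300 and 500 mg/kg, deviated by 0.42 and 0.63 for Hmox1 and by 0.31 and 0.06 for Blvrb. Without their pairs, left out after seeing the data, r over 27 pairs was 0.68, 0.47, 0.57 and 0.50 in the order above. The other 5 members had r between -0.17 and 0.37.

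**Figure D5:**
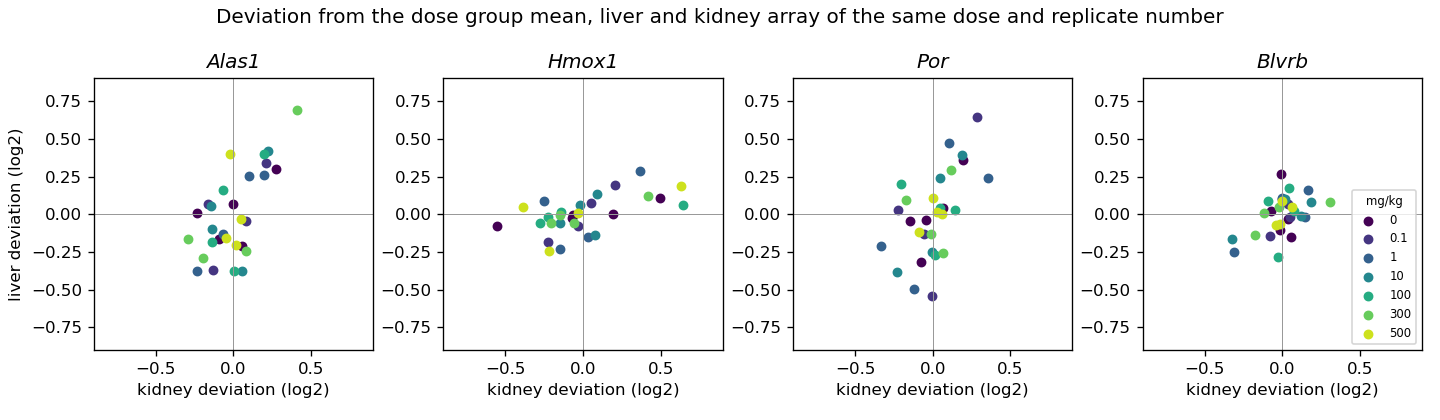
Deviation from the dose group mean in liver (y axis, log2) against kidney (x axis, log2) for Alas1, Hmox1, Por and Blvrb, with 1 point per pair of arrays of the same dose and replicate number, coloured by dose. The 29 pairs of Alas1 have r = 0.66, and the highest pair on both axes is 300 mg/kg replicate 4.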

How the data were processed

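Liver and kidney messenger RNA was measured on 58 arrays. The deposited table holds log2 values per probe set, which the authors made with RMA, per the submitters' processing notes, with no version given. Its 0 missing values and 0 unmapped columns needed no repair. Gene symbols came from the array platform's annotation, which gives 20826 probe sets 1 symbol, 436 several and 9780 none. Probe sets above the 40th percentile of 4 or more arrays passed in an organ, and the brightest stood for its gene. Each dose was set against its organ's control with limma 3.58.1 (R 4.3.3; lmFit, then eBayes with an intensity trend), 1 fit per organ over 29 arrays, with Benjamini-Hochberg adjustment over all genes tested. A call is an adjusted p under 0.05, two-sided. The trend used the dose rank as 1 term. Organs were compared in 1 fit of all 58 arrays. Single genes were also tested by exact permutation over 126 splits.

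Replicates are biological, per the labels, which name no batch. Arrays of the same number at different doses did not deviate together on the median (r 0.00 in liver and 0.02 in kidney over 84 pairs each). Numbers were therefore taken not to pair samples within an organ. Single pairs ran from -0.29 to 0.23 in liver and from -0.36 to 0.67 in kidney, with 13 and 25 over 0.1. Liver and kidney arrays of the same dose and number deviated together weakly (median r 0.16, 21 of 29 pairs over 0.1, against -0.04 for other numbers). The fit of both organs treated them as independent. With the pair as a random block (consensus correlation 0.08), 0 members were called for the liver minus kidney effect at any dose. It was the same without the block. Pair r was higher for Alas1 (0.66), Hmox1 (0.58), Por (0.56) and Blvrb (0.50). As the block gave every gene the same correlation, it cannot show how pairing bears on these members. The permutations of liver and kidney pairs drew 100000 reorderings within doses.

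The members and all gene lists were chosen with earlier results of these data known. Genes named are all 9 members, those called in each list, up to 6 and 4 of a list with the smallest p at 500 mg/kg in liver and kidney, and the 3 most like each of the 3 members with the smallest p in liver. Alternatives were other filters, probe set averaging, eBayes settings, array weights, second normalizations, fewer groups, another dose scale, the replicate block and leaving out arrays. Fits were tested on simulated data. Promoter sequences came from RefSeq, build GRCr8.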

Additional observations from a re-analysis of the deposited data

Results flagged for a closer look

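In 126 groups of 4 or 5 arrays (9 genes, 7 doses and both organs), 8 held an array whose gap to its neighbour was large for the group by Dixon's test, where chance flags about 1 in 20. In liver these were Alas1 at 300 mg/kg, where replicate 4 was at 10.86 and the others ended at 10.00, and Urod at 500 mg/kg, where replicate 2 was at 9.90 and the next at 9.74. In kidney Alad had a low control replicate 3 at 9.72, next to 9.90, and a high replicate 3 at 300 mg/kg at 10.12, next to 9.96, on an array with high adipose transcripts. Uros replicate 1 at 0.1 mg/kg was at 6.86, next to 6.68. Cpox was low in kidney replicate 3 at 10 mg/kg, at 7.62 next to 8.09, and in kidney replicate 4 at 100 mg/kg, at 7.67 next to 8.02. Hmox1 in kidney replicate 2 at 100 mg/kg was at 6.62, next to 5.84.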

How the results depend on the processing

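The count of members called was recomputed 609 times, over every comparison and alternative, and 586 of these counts equalled the main one. In liver at 500 mg/kg the count became 1 in place of 0 when probe sets were averaged, when arrays were weighted by quality, after a second quantile or loess step, or with only the compared groups in the fit. In the liver trend it became 1 with the stricter filter (60th percentile), averaged probe sets, weighted arrays, either second normalization, or dose as a linear term. Leaving out 1 array gave 0 to 1 in the liver trend, with 1 without control replicate 2, 1 mg/kg replicate 1, 100 mg/kg replicate 2 or 3, or 300 mg/kg replicate 1. That member was Uros each time, and the cause was not tested. Exact permutation without adjustment over genes gave 1, 1 and 2 members in liver at 10, 100 and 500 mg/kg, against 6.67%, 4.42% and 12.9% of all genes. In kidney it gave 1, 3, 2 and 1 at 0.1, 1, 10 and 500 mg/kg, against 6.59%, 6.21%, 5.01% and 8.26% of all genes. With the replicate block, a fit that in effect drops control replicate 5, the number of members called was 0 at every dose, and Uros at 500 mg/kg was 0.43 (limma adjusted p = 0.133). Without the adipose-rich kidney arrays (replicate 3 at 300 and 500 mg/kg), left out after seeing the data, the kidney counts at 300 and 500 mg/kg were 0. No value that was called changed sign. Limits are 4 dosed arrays a group, dim Uros probe sets that followed each other weakly, and RNA levels alone, with no enzyme activity or haem.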
